A study of Mus musculus with 24 samples.

Results

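The CD8 and NK cell marker genes described here are Cd8a, Cd8b1, Klrd1, Klrk1, Klrc1, Klrb1c, Ncr1, Eomes and Runx3, 9 of the 55414 genes in the count table. They were named as markers of 2 cell types that a purification of CD4+ cells is meant to remove, and they were chosen by their levels in these same libraries, library by library and beside those of Cd4. Their levels and their spread are therefore given as a description, and the number of them that changed supports nothing further. RNA was measured in splenic conventional CD4+ T cells (Tconv, CD4+ CD25−) of conplastic mice. Their nuclear genome is that of C57BL/6J, and their mtDNA is either the C57BL/6J one (mtDNA B6, labelled WT) or that of strain NZB (mtDNA NZB). Cells of each haplotype were taken at rest or after 72 h of activation with beads carrying CD3 and CD28 antibodies plus IL-2. Each of the 4 groups had 6 libraries. Most mice were males 2 to 3 months old. Other spleen cells were depleted with magnetic antibodies and CD25+ cells were then removed, so the preparation was enriched and not sorted cell by cell. The labels do not tie a library to an animal, so every p-value measures the spread between libraries, which may be technical in part.

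CD8 alpha and CD8 beta, the products of Cd8a and Cd8b1, form the coreceptor that binds MHC class I on cytotoxic T cells, whereas CD4 binds MHC class II on helper T cells. The transcription factor Runx3 silences Cd4 in the CD8 lineage, and its counterpart ThPOK, the product of Zbtb7b, keeps Cd8 genes off in the CD4 lineage. NK cells carry NKG2D (Klrk1), the CD94 and NKG2A pair (Klrd1, Klrc1), NK1.1 (Klrb1c) and NKp46 (Ncr1), and they depend on the T-box factor Eomes. Activated T cells of either lineage can also transcribe Eomes, Runx3 and some of these receptors, so none of the 9 genes marks a cell type by itself.

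Libraries held between 51409 and 6449395 UMI counts, where a UMI count is 1 captured molecule counted once. Replicate 2 of resting mtDNA NZB held the smallest total, so its scaled values rest on very few counts. It is kept in the fit of all 24 libraries and left out of the coefficients of variation given below, unless stated. Figures of single libraries draw it as an open symbol or leave it out. Replicate 6 of both mtDNA NZB groups is, like this library, outside the set that fits the mean counts given with the study, and values that change without these 3 libraries are given for the other 21. T cell genes were present in all libraries, and 7 such genes, among them Cd3e and Trac, summed to between 3672 and 7018 counts per 1000000 (CPM) after TMM scaling. Other cells were present too: 6 B cell genes summed to between 84.8 and 1258 CPM, and 5 myeloid genes to between 457 and 2806 CPM at rest and between 10.8 and 109 CPM after activation. At rest erythroid genes summed to up to 7185 CPM (mtDNA B6 replicate 1) and neutrophil genes to up to 4950 CPM (mtDNA NZB replicate 6), in both cases above the T cell genes of that library.

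Cd8a was detected in every library and Cd8b1 in all but the smallest, and both were higher after activation. In resting mtDNA B6 libraries Cd8a ran from 14.9 CPM (lowest) over 17.65 (median) to 38.7 CPM (highest), and after activation from 59.97 over 108.0 to 151 CPM. The 2 groups did not overlap. Of all 10566 genes tested, 15.4% were higher and 16.4% lower on activation without overlap in mtDNA B6, and 11.9% and 6.95% in mtDNA NZB. These shares stand beside the other markers below as well. In bulk RNA, more cells of a type and more RNA per cell cannot be told apart. In mtDNA NZB libraries Cd8a ran from 11.2 over 16.3 to 42.4 CPM at rest and from 29.7 over 65.4 to 188.5 CPM after activation, and the lowest activated libraries lay inside the resting range. The fitted log2 fold change was 2.35 ± 0.42 (SE, n = 6 per group) in mtDNA B6, with an adjusted p of 5.76e-05 by edgeR's quasi-likelihood test. In mtDNA NZB it was 1.90 ± 0.44, with an adjusted p of 0.000799, and 1.301 ± 0.44 over the 21 libraries, where it still passed.

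Cd8b1 followed Cd8a. Its levels in mtDNA B6 ran from 37.4 over 50.6 to 72.5 CPM at rest and from 101.3 over 166 to 259.9 CPM after activation, without overlap. In mtDNA NZB they ran from 0 over 38.3 to 99.5 CPM at rest, the 0 being the smallest library, and from 51.8 over 99.0 to 345.1 CPM after activation. Here the groups overlapped. The log2 fold change was 1.79 ± 0.41 in mtDNA B6 (adjusted p of 0.00091, edgeR) and 1.44 ± 0.43 in mtDNA NZB (adjusted p of 0.00629, edgeR). The mtDNA NZB call rested on the 3 libraries named above: over the 21 libraries the log2 fold change was 0.78 ± 0.40, with an adjusted p of 0.109. Cd8b1 lies at chr6:71299772-71315087 and Cd8a at chr6:71350411-71356157 of GRCm39, both on the plus strand and 35.3 kb apart, and no other annotated gene has an exon in the last 1000 bases of either one.

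**Figure D1:**
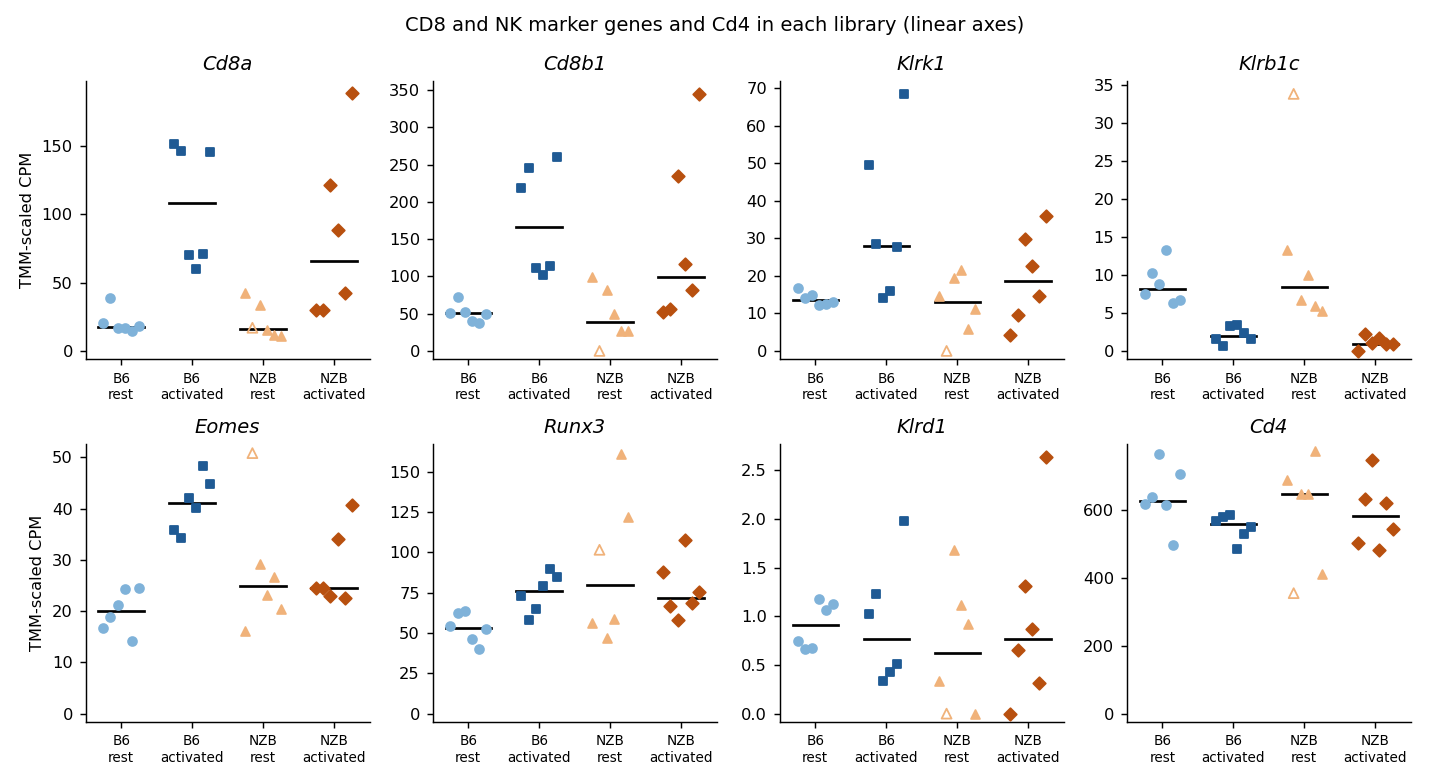
TMM-scaled CPM (y axes, linear and different in each panel) of 7 of the 9 marker genes and of Cd4 in each of 24 libraries, by group (x axes). Each symbol is 1 library, in replicate order from left to right, the line is the group's median and the open triangle is the library of 51409 UMI counts. Cd8a and Cd8b1 are higher after activation and span a wider range of CPM, Klrb1c is lower in both haplotypes, and Cd4 varies little.

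The balance of the CD8 chains shifted with activation. For each Cd8a count, resting mtDNA B6 libraries held between 1.87 and 3.08 Cd8b1 counts (median 2.495), and activated ones between 1.45 and 1.79 (median 1.645). In mtDNA NZB the 5 larger resting libraries held between 2.35 and 3.16 (median 2.39), and the 6 activated ones between 1.32 and 1.94 (median 1.855). Resting and activated libraries thus did not overlap in either haplotype, and Cd8a had the larger fold change of the pair. The ratio is taken within a library and does not depend on scaling. It was examined after the levels were known and carries no test.

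Set against Cd4 within the same library, CD8 counts were few at rest, and more numerous over a wider range after activation. In mtDNA B6 the SD of Cd8a counts per 100 Cd4 counts was 1.40 at rest (mean 3.31) and 7.42 after activation (mean 19.3), so it grew with the mean. For every 100 Cd4 counts, resting mtDNA B6 libraries held between 2.20 and 6.07 Cd8a counts and activated ones between 12.01 and 26.6. In mtDNA NZB the 5 larger resting libraries held between 1.48 and 6.16, and the activated ones between 4.68 and 34.6. Cd8b1 ran from 6.62 to 11.3 per 100 Cd4 counts at rest and from 18.9 to 47.2 after activation in mtDNA B6. In mtDNA NZB it ran from 3.48 to 14.4 and from 8.80 to 63.3. The highest activated mtDNA NZB library, replicate 6, is one of the 3 libraries outside the 21, and the highest of the other 5 held 18.3 Cd8a counts per 100 Cd4 counts. MARS-seq counts the 3′ end of each captured molecule once, so counts were not scaled for gene length. How well each gene is captured was not measured, so these are ratios of counts and not of molecules or cells.

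**Figure D2:**
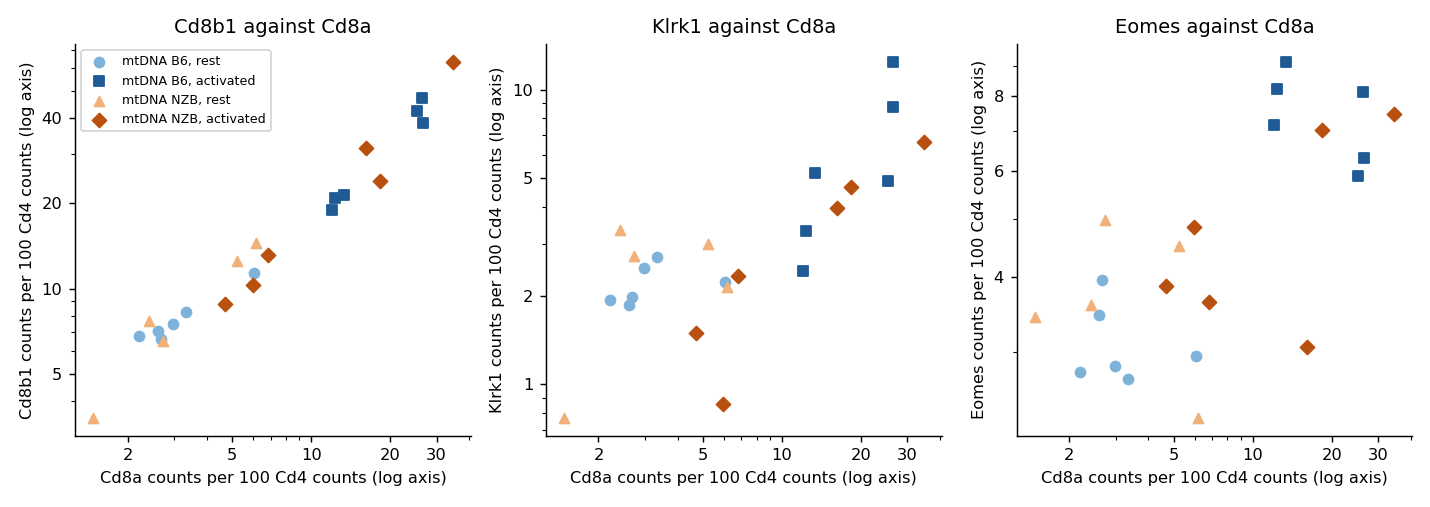
Counts of Cd8b1, Klrk1 and Eomes per 100 Cd4 counts (y axes) against those of Cd8a (x axis), all on log axes, for the 23 libraries of at least 500000 UMI counts. Each symbol is 1 library and the shapes give the group. Cd8b1 lies along a narrow band with Cd8a, Klrk1 is looser, and Eomes stands between 5.90 and 9.13 in activated and between 2.70 and 3.95 in resting mtDNA B6 libraries, with 2 activated mtDNA NZB libraries (7.03 and 7.48) inside the former range.

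Cd4 itself was not called in any comparison. Its mean was 641 ± 91.0 CPM (SD, n = 6) in resting and 550 ± 37.6 CPM in activated mtDNA B6 libraries, and 588 ± 166 and 590 ± 99.2 CPM in mtDNA NZB. Its coefficient of variation (CV, the SD as a percent of the mean) over the libraries of at least 500000 counts was 14.2% and 6.83% in mtDNA B6 and 21.3% and 16.8% in mtDNA NZB, at rest and after activation. The CV of Cd8a in the same order was 42.4%, 41.4%, 62.4% and 75.6%, against 12.2%, 5.22%, 12.6% and 7.72% from counting alone. Counting error was thus the smaller part of its spread in all 4 groups. As a multiple of the CV of Cd4, the CV of Cd8a was 2.98 and 6.05 in mtDNA B6 and 2.93 and 4.5 in mtDNA NZB. At rest in mtDNA B6 this multiple came from 1 library: without replicate 2 it was 0.796. The multiples of Cd8b1 were 1.71, 6.19, 2.69 and 4.75, and without the same replicate 2 the first of them was 0.913. In mtDNA NZB the multiple of Cd8a after activation was 7.31 without replicate 3, and that at rest was 6.51 over the 21 libraries.

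**Figure D3:**
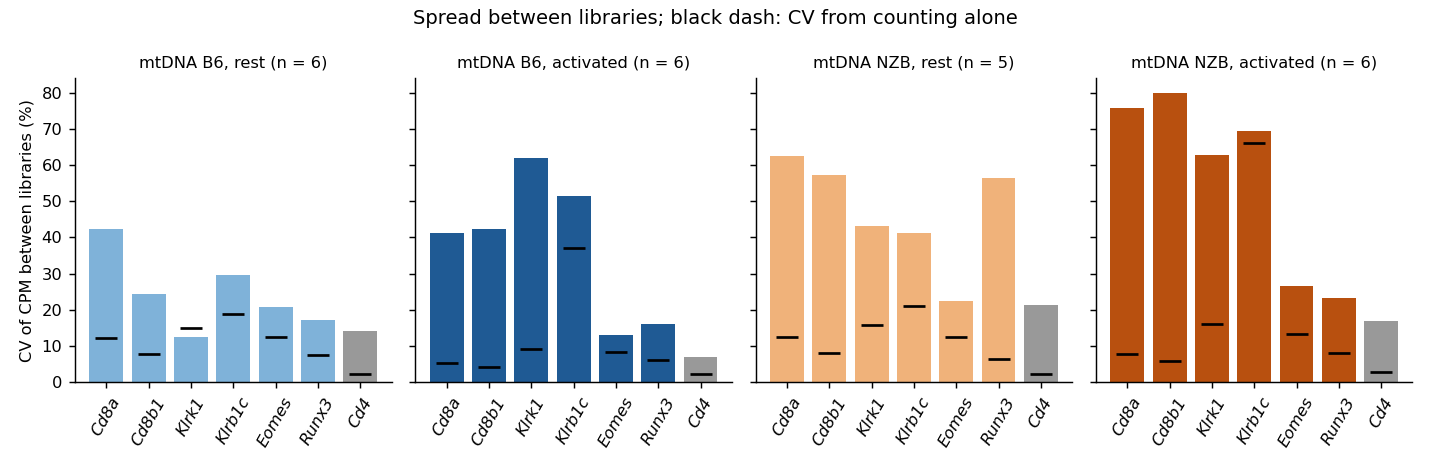
CV of TMM-scaled CPM between libraries, in percent (y axis, from 0), of 6 marker genes and of Cd4 (grey) in each group, over libraries of at least 500000 UMI counts. The black dash is the CV that counting alone would give. After activation Cd8a, Cd8b1 and Klrk1 stand at between 41.4% and 79.9% with dashes far below, Eomes and Runx3 at between 13.0% and 26.5%, and Cd4 at 6.83% and 16.8%; the bar of Klrb1c in activated mtDNA NZB lies close to its dash.

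The NK receptor gene Klrk1, which is also expressed by activated CD8 T cells, varied between libraries about as much as the CD8 genes after activation and less than Cd4 in resting mtDNA B6. In resting mtDNA B6 libraries it ran from 12.1 over 13.7 to 16.7 CPM. Its CV of 12.4% there was below the 14.9% of counting alone and 0.87 times that of Cd4. After activation it ran from 14.2 over 28.0 to 68.5 CPM, a CV of 61.8% and 9.05 times that of Cd4. In mtDNA NZB the CV was 43.1% at rest and 62.7% after activation, 2.02 and 3.73 times that of Cd4, and the first multiple was 5.14 over the 21 libraries. The log2 fold change in mtDNA B6 was 1.28 ± 0.37 (adjusted p of 0.00631, edgeR), although the groups overlapped. In mtDNA NZB Klrk1 ran from 0 over 12.96 to 21.5 CPM at rest and from 4.31 over 18.6 to 36.1 CPM after activation, and the log2 fold change of 0.51 ± 0.40 did not pass (adjusted p of 0.285, edgeR). The difference between the haplotypes' responses was −0.77 ± 0.54 on the log2 scale, with an adjusted p of 0.536, so a difference between them was not shown.

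Klrb1c went the other way from Klrk1 and the CD8 genes. It encodes NK1.1, carried by NK cells and NKT cells. It ran from 6.38 over 8.13 to 13.3 CPM in resting mtDNA B6 libraries and from 0.612 over 1.94 to 3.39 CPM after activation. In mtDNA NZB it ran from 5.22 over 8.39 to 33.9 CPM at rest, the highest value being 2 counts in the smallest library, and from 0 over 0.955 to 2.28 CPM after activation. Neither haplotype's groups overlapped, while 16.4% of all genes in mtDNA B6 and 6.95% in mtDNA NZB were likewise lower without overlap. The log2 fold change was −1.995 ± 0.34 in mtDNA B6 (adjusted p of 3.51e-05) and −2.79 ± 0.40 in mtDNA NZB (adjusted p of 2.65e-06, both by edgeR). The activated groups held 47 and 23 counts in all, so counting alone gives a CV of 37.1% and 66.2% there, against the observed 51.5% and 69.4%.

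The remaining NK receptor genes were near or at the limit of detection, and none of them passed the filter on low counts. Klrd1 (CD94) had 76 counts in all among 76200568 UMI counts, found in 21 of 24 libraries. Pooled over each group it stood at 0.881 and 0.885 CPM in mtDNA B6 and at 0.782 and 1.42 CPM in mtDNA NZB, at rest and after activation, with 95% Poisson intervals from 0.404 to 2.07 CPM that overlap throughout. Of the 27 counts in activated mtDNA NZB, 18 came from replicate 6. Ncr1 (NKp46), the receptor most restricted to NK cells, had 4 and 1 counts in mtDNA B6 and 8 and 1 in mtDNA NZB. Klrc1 (NKG2A) had 1 count in all, in an activated mtDNA B6 library. A count of 0 in the 3 other groups allows levels of up to 0.139, 0.196 and 0.158 CPM in resting mtDNA B6, resting mtDNA NZB and activated mtDNA NZB. These intervals and limits, from a floor of 3 counts, cover counting error only.

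The 4 Klr genes lie within one stretch of chromosome 6, the NK gene complex, with 900 kb from the start of Klrb1c (chr6:128755448-128766178) to the end of Klrc1 (chr6:129642978-129655936). Klrd1 (chr6:129568677-129575738) and Klrk1 (chr6:129587286-129600827) lie between them, Klrd1 on the plus strand and the other genes on the minus strand. Of these 4 genes Klrk1 and Klrb1c could be tested, and they did not share a pattern. Klrk1 was higher after activation in mtDNA B6 and Klrb1c lower. Receptor genes of this family resemble each other. How reads shared between copies were counted is not given in the sources used here, so their counts are less certain than those of Cd8a. Of 25 further NK receptor genes, among them the Klra (Ly49) family, 9 and 12 had no count in resting and activated mtDNA B6 libraries and 10 and 12 in mtDNA NZB.

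Of the transcription factors, Eomes was steadier between libraries than the CD8 genes. It drives effector and NK programmes. In mtDNA B6 it ran from 14.2 over 20.1 to 24.5 CPM at rest and from 34.3 over 41.0 to 48.4 CPM after activation. These groups did not overlap, while 15.4% of all genes were likewise higher without overlap. The log2 fold change was 1.05 ± 0.18 (adjusted p of 2.69e-05, edgeR). In mtDNA NZB it ran from 16.0 over 24.9 to 50.8 CPM at rest, the highest being 3 counts in the smallest library, and from 22.6 over 24.45 to 40.8 CPM after activation. The log2 fold change of 0.28 ± 0.19 did not pass (adjusted p of 0.211, edgeR). Its CV was between 1.05 and 1.91 times that of Cd4. A long noncoding RNA on the opposite strand, Gm33460, overlaps the last 1000 bases of Eomes (chr9:118307280-118315200, plus strand) but had 32 counts in all libraries.

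Of the 6 tested markers, Eomes had the smallest p for a difference between the haplotypes' responses, and it did not pass the correction for all genes. After activation it was lower in mtDNA NZB by a log2 difference of −0.51 ± 0.17 (unadjusted p of 0.00674 by edgeR, adjusted p of 1), and 5 of 6 activated mtDNA NZB libraries lay below all 6 of mtDNA B6. The difference between responses was −0.77 ± 0.26 on the log2 scale (adjusted p of 0.218, edgeR). Over the 21 libraries the difference was −0.94 ± 0.24 with an adjusted p of 0.0537 (edgeR), and the activated groups did not overlap. Those 21 leave out activated mtDNA NZB replicate 6, which at 40.8 CPM lay inside the mtDNA B6 range. The share of all genes that separate likewise between haplotypes was not computed.

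Runx3 was neither called on activation nor between haplotypes. It ran from 39.9 over 53.2 to 63.4 CPM in resting and from 57.8 over 76.2 to 89.6 CPM in activated mtDNA B6 libraries, a log2 fold change of 0.50 ± 0.23 (adjusted p of 0.0741, edgeR). In mtDNA NZB it ran from 47.0 over 80.1 to 161.3 CPM at rest and from 57.9 over 71.96 to 107.6 CPM after activation (log2 fold change of −0.21 ± 0.24, adjusted p of 0.467, edgeR). In resting mtDNA NZB, replicates 1, 3 and 4 stood at 56.4, 47.0 and 58.5 CPM, and replicates 5 and 6 at 161.3 and 121.7 CPM. Replicate 2 stood at 101.6 CPM, which is 6 counts in the smallest library and too few to place it with either. The difference at rest was 0.75 ± 0.24 on the log2 scale, with an adjusted p of 0.0751, and 0.595 ± 0.256 over the 21 libraries (adjusted p of 0.1675, edgeR). It passed when replicate 1, 3 or 4 was left out (adjusted p of 0.0337, 0.0264 and 0.0423) and was 0.44 without replicate 5 (adjusted p of 0.424, all by edgeR). Replicates 5 and 6 also had lower Cd8b1 levels (27.04 and 26.9 CPM) than replicates 1, 3 and 4, while the depth of replicate 2 is too low to rank its 0 counts of Cd8b1.

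The core that RUNX proteins bind, TGTGGT, was looked for on both strands of the RefSeq promoters (GRCm38.p6, from 250 bases before to 50 after the start) of these genes, because Runx3 is one of them. Cd8b1 and Klrd1 had no entry. It was present in 5 of the other 7 genes, against 18.9% of 27025 genes with an entry and 16.8% of all 32851 promoters, and was not found in those of Cd8a and Eomes. A match of 6 letters is a description and not a binding site. The first match in each gene is shown in capitals with 10 bases on either side, 5′ to 3′ on the gene's strand, at chr6:128788715-128788740, chr6:129623978-129624003, chr6:129679045-129679070, chr7:4337529-4337554 and chr4:135120501-135120526 in this order:
Klrb1c: gaaggaaagcTGTGGTcatggtgttt
Klrk1: atagctgtgcTGTGGTtgtgtggggg
Klrc1: tgttgttgttACCACAgcactcgtat
Ncr1: agatccaaaaTGTGGTtaaatgtgtt
Runx3: tggtccctcaACCACAgaaccacaag
Klrb1c and Klrk1, whose changes on activation were opposite in mtDNA B6, both carry it in the same orientation.

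Of the 9 genes, 6 passed the filter on low counts. On activation in mtDNA B6, 4 of these 6 were called higher (Cd8a, Cd8b1, Klrk1 and Eomes) and 1 lower (Klrb1c), while 22.4% and 24.5% of the 10566 genes tested were called higher and lower. In mtDNA NZB 2 were called higher (Cd8a and Cd8b1) and 1 lower (Klrb1c), against 25.2% and 28.4% of all genes. A gene was called at an adjusted p not above 0.05, whatever its fold change. The median log2 fold change of the 6 was 1.16 in mtDNA B6 and 0.40 in mtDNA NZB, and that of all genes −0.026 and −0.058. No marker gene was called between haplotypes at rest, where 1.9% of genes were called higher and 0.861% lower in mtDNA NZB. These shares rest on single libraries: edgeR called 201 genes higher and 91 lower, 0 and 0 without resting mtDNA B6 replicate 4 or mtDNA NZB replicate 5 (1906 and 1250 genes at an unadjusted p under 0.05), and 447 and 125 without resting mtDNA NZB replicate 1. After activation, and for the difference between responses, edgeR called 0% of genes in either direction, with 327 and 1512 genes at an unadjusted p under 0.05. DESeq2 called 0 and 1 genes.

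**Figure D4:**
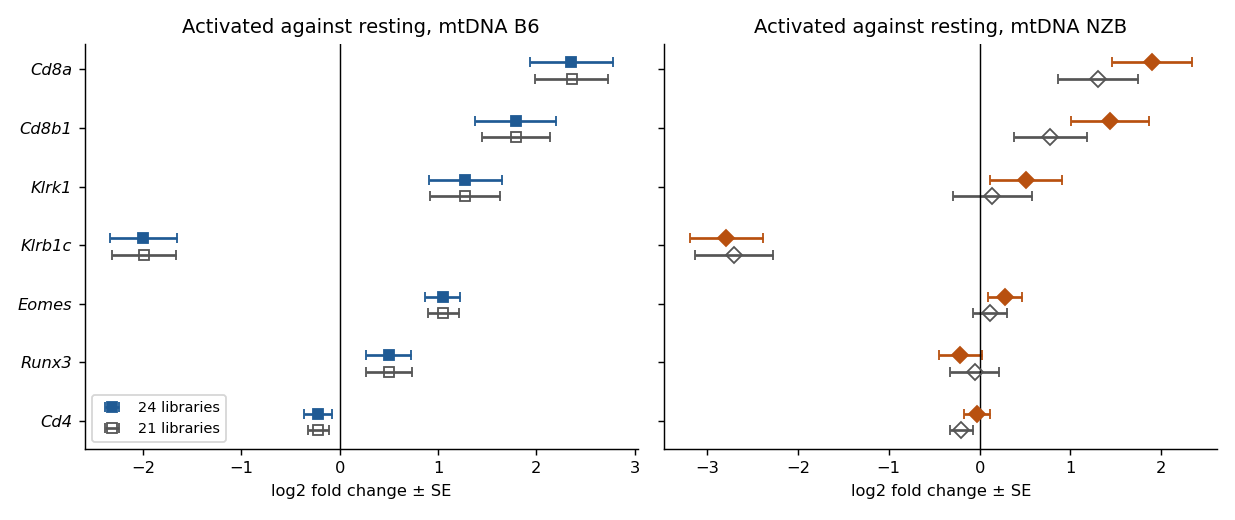
Log2 fold change of activated against resting libraries with its standard error (x axes), for 6 marker genes and Cd4 (y axis), in mtDNA B6 (left, squares) and mtDNA NZB (right, diamonds). Filled symbols are 24 libraries and open ones the 21. In mtDNA B6 Cd8a stands at 2.35 and Eomes at 1.05 under both, whereas in mtDNA NZB Cd8a moves from 1.90 to 1.301 and Cd8b1 from 1.44 to 0.78.

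Libraries also fell into 3 sets by reads per UMI, a property of sequencing and not a labelled batch, and these were unevenly filled: activated mtDNA B6 had 5 libraries in the set between 1.88 and 1.96 reads per UMI, where resting mtDNA B6 had 0. Within the set between 2.11 and 2.24, the 4 resting mtDNA B6 libraries had Cd8a at between 16.4 and 38.7 CPM and the single activated one at 70.6 CPM. For mtDNA NZB that set held 1 resting library at 42.4 CPM and 2 activated ones at 29.7 and 88.5 CPM, which overlap. In the other sets they did not overlap. The set between 2.68 and 2.80 held 4 resting mtDNA NZB libraries at between 11.2 and 16.9 CPM, the highest being the smallest library. Its 2 activated ones stood at 30.2 and 121.1 CPM. In the set between 1.88 and 1.96, 1 resting library stood at 33.9 CPM and 2 activated ones at 42.4 and 188.5 CPM. With the set as a term in the edgeR fit, Cd8a kept a log2 fold change of 1.75 ± 0.49 in mtDNA B6 (adjusted p of 0.0083) and 1.77 ± 0.42 in mtDNA NZB (adjusted p of 0.00124). Cd8b1 at 1.13 ± 0.49 and Klrk1 at 0.88 ± 0.47 no longer passed in mtDNA B6 (adjusted p of 0.0789 and 0.156, edgeR), and Runx3 at 0.84 ± 0.29 did (adjusted p of 0.0277, edgeR). Klrb1c and Eomes kept their calls in mtDNA B6.

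The markers did not vary together as one block. After each gene's group mean was removed, log2 CPM of Cd8a had its highest Pearson correlation with Cd8b1 (r = 0.972 over 23 libraries), followed by Fcgrt, the neonatal Fc receptor (0.89), and Fcrla, a B cell Fc receptor-like gene (0.885). Cd8b1 had Cd8a, Stoml1 (0.93) and Ifi27 (0.90) at its top. Klrk1 was most like Nkg7, a granule gene of cytotoxic lymphocytes (0.893), and then Jak3 (0.872) and Stoml1 (0.862), and its r with Cd8a was 0.768. Cd8a had an r of 0.042 with Klrb1c, 0.145 with Eomes, −0.318 with Runx3 and 0.214 with Cd4. The points share libraries and scaling, and these are descriptions over all 10566 genes. Klrb1c (Gm14027, 0.731, Tnfsf10, 0.718, and N6amt1, 0.717) and Eomes (Trim39, 0.757, Faah, 0.723, and Proser1, 0.692) had looser nearest genes. Runx3 was nearest to Jarid2 (0.903), Top1 (0.875) and Cdk11b (0.874), and Cd4 to Cd247 (0.871), Ppp1r13b (0.856) and Cd5 (0.832). Of these, Cd247 and Cd5 are T cell genes, and Ppp1r13b is a p53 cofactor and no T cell marker.

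B cell RNA moved with the CD8 genes from library to library. In activated mtDNA NZB replicates 1 to 6, Cd8a stood at 30.2, 29.7, 121.1, 88.5, 42.4 and 188.5 CPM. The summed B cell genes stood at 102.1, 84.8, 674, 867.9, 299.1 and 1074 CPM in the same libraries. Il2ra, the activation-induced IL-2 receptor chain, stood at 138, 179.7, 65.4, 59.3, 171.5 and 54.4 CPM. The libraries low in Cd8a were thus low in B cell genes and high in Il2ra. In activated mtDNA B6 replicates 1 to 6, Cd8a stood at 151, 146.5, 70.4, 59.97, 70.6 and 145.4 CPM, B cell genes at 719.5, 823.3, 466.6, 527.5, 528.2 and 571.7 CPM and Il2ra at 42.0, 66.4, 118.3, 114.9, 86.2 and 50.7 CPM, the same order of high and low. Over the 23 libraries of at least 500000 counts, with group means removed, Cd8a had an r of −0.459 with Il2ra. None of the 6 B cell genes was called on activation in either haplotype, and all 6 had counts in every group. The part of B cell RNA in the CD8 levels was not tested.

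**Figure D5:**
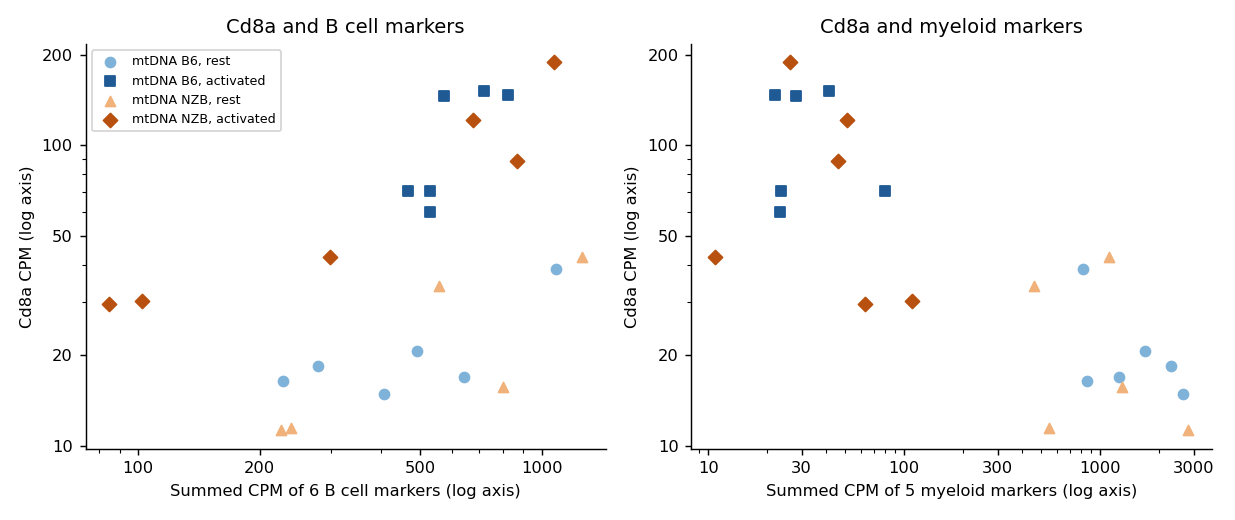
Cd8a in TMM-scaled CPM (y axes) against the summed CPM of 6 B cell genes (left) and of 5 myeloid genes (right), all on log axes, for the 23 libraries of at least 500000 UMI counts. Each symbol is 1 library and the shapes give the group. Within activated libraries Cd8a is higher where B cell genes are higher, and myeloid genes separate resting libraries (at or above 457 CPM) from activated ones (at or below 109 CPM).

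Genes that accompany the CD8 programme gave a mixed picture. Beside these lists, the shares of all tested genes called higher and lower were 22.4% and 24.5% in mtDNA B6 and 25.2% and 28.4% in mtDNA NZB. Of 8 such genes, 4 rose on activation in mtDNA B6: Cst7, a granule protease inhibitor (log2 fold change of 1.14), Nkg7 (0.99), Ctsw, a cathepsin of cytotoxic cells (0.89), and Cd160 (0.86). Nkg7 and Cd160 no longer passed without activated mtDNA B6 replicate 1, the library with the second highest Klrk1 (adjusted p of 0.0535 and 0.123, edgeR), and Cd160 was also lost without any 1 of 3 other libraries and under DESeq2 (adjusted p of 0.0589). In mtDNA NZB Cst7 also rose at 1.14 and the chemokine gene Ccl5 fell at −1.29. Of 9 cytotoxic effector genes 3 rose in mtDNA B6, led by granzymes Gzmb (4.47), Gzmc (3.58) and Gzma (3.11). In mtDNA NZB 4 rose, with Gzmb at 4.06 and Gzmc at 3.80, and 2 fell, Fasl at −1.75 and the granule proteoglycan gene Srgn at −0.85. Fasl was also the 1 effector gene called between haplotypes at rest (higher in mtDNA NZB by 1.04 ± 0.27, adjusted p of 0.0389, edgeR), a call lost when any 1 of 6 resting libraries was left out (adjusted p of up to 0.176). Activated CD4+ T cells can express granzymes, so these genes do not separate the lineages. Of 3 CD4 lineage genes tested, 0 were called in mtDNA B6 by edgeR and 1, Izumo1r (0.49), rose in mtDNA NZB.

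Of 25 further NK receptor genes 4 could be tested, and 3 of these fell on activation in both haplotypes, as Klrb1c did, while Slamf7 stood at 0.44 and −0.06 and did not pass. The log2 fold changes of the 3 in mtDNA B6 and mtDNA NZB were −3.05 and −3.35 for Fcgr3 (CD16), −2.46 and −2.19 for Klrg1 and −1.31 and −0.64 for Cd226, whose call in mtDNA NZB was lost when any 1 of 12 libraries was left out (adjusted p of up to 0.173, edgeR). Of 5 receptor adaptor genes tested 3 fell in both, at −4.44 and −4.67 for Tyrobp (DAP12), −3.21 and −3.47 for Fcer1g and −0.73 and −0.81 for Hcst (DAP10, the partner of NKG2D). Cd247, the zeta chain shared with the T cell receptor, rose by 0.38 in mtDNA NZB, but not over the 21 libraries (0.28, adjusted p of 0.0534, edgeR). Fcgr3, Tyrobp and Fcer1g are also expressed by myeloid cells, and all 5 myeloid genes, 4 of 4 neutrophil genes, 4 granulocyte precursor genes and 6 erythroid genes tested fell in both haplotypes too. Over the 21 libraries the neutrophil genes S100a8 and S100a9, at −2.34 and −1.78, did not pass in mtDNA NZB (adjusted p of 0.0533 and 0.201, edgeR). The part of these cells in the fall of Klrb1c and of the adaptors was not tested. Both platelet genes tested rose in mtDNA B6 and 1 of 2, Pf4, in mtDNA NZB. Of NKT and gamma delta T cell genes 4 were found, summing to at most 16.9 CPM, which is 1 count in the smallest library, and to at most 9.01 CPM in the others, and none could be tested.

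Among factors and receptors that act beside the markers, Tbx21 (T-bet), the relative of Eomes, rose in both haplotypes by log2 fold changes of 1.68 and 1.59, whereas Eomes rose in mtDNA B6. Runx1, the paralog of Runx3, fell at −1.22 in each, as did Tox at −1.68 and −1.02 and Zeb2 at −1.89 and −2.45. In all, 4 of 13 lineage factor genes rose and 5 fell in mtDNA B6, and 2 rose and 8 fell in mtDNA NZB (shares of all genes as above). Of 7 cytokine receptor genes 4 rose in each haplotype, with Il2rb, shared by the IL-2 and IL-15 receptors, at 2.37 and 2.51, Il12rb1 at 2.20 and 2.43 and Il12rb2 at 3.98 and 3.05, and 1 fell in mtDNA NZB. Of 8 genes for ligands of these receptors, 1 rose and 3 fell in mtDNA B6 and 2 rose and 1 fell in mtDNA NZB, with the NKG2D ligand gene Ulbp1 up by 1.89 and 1.46. Il2ra, one of 3 Treg genes, rose by 4.68 and 5.00, and Ikzf2 fell at −0.88 in mtDNA B6. Foxp3 rose by 0.67 in mtDNA NZB (adjusted p of 0.048, edgeR). This call was lost when any 1 of 14 libraries was left out (adjusted p of up to 0.246, edgeR) and under DESeq2 (adjusted p of 0.1). Of 7 T cell identity genes Cd3d rose and Cd5 and Trac fell in both haplotypes. In mtDNA NZB the Cd3d call was lost over the 21 libraries (0.40, adjusted p of 0.054, edgeR) and the Trac call when any 1 of 9 libraries was left out (adjusted p of up to 0.11, edgeR). Apart from Fasl at rest, 0 genes of these lists passed edgeR's test between haplotypes or for the difference between responses.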

How the data were processed

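The authors prepared bulk MARS-seq libraries, which tag each polyadenylated molecule with a UMI, trimmed reads with cutadapt, aligned them with STAR against the last 1000 bases of genes in GRCm39 (Ensembl 106) and counted genes with htseq-count. The deposited values are whole UMI counts, corrected by the authors for saturation and not scaled to depth. A second table of larger deposited counts was used as an alternative, and its total over the UMI total gave the reads per UMI. The counting step's strand setting is not given in the sources used here. 1 column matched no sample and was not used. Coordinates come from GRCm39 (GENCODE).

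Counts of all 24 libraries were fitted together in 4 groups with edgeR 4.0.16 (R 4.3.3; TMM, filterByExpr, quasi-likelihood test, Benjamini-Hochberg over the 10566 genes tested), and calls were made at an adjusted p of at most 0.05. CPM were TMM-scaled, and log2 CPM had a prior count of 2. DESeq2 1.42.0, other filters, scalings and libraries were alternatives, and the fit was tested on simulated data. The 21 libraries are those whose means match the study's own mean counts. The closest replicates of a group still differed beyond sampling noise (a chi-square of 2.77 per degree of freedom), so each library counted once. Depth ranged from 51409 to 6449395 UMI counts per library.

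The marker genes, the 17 companion lists and the tests were chosen with earlier results of these data known. Text names every marker gene, Cd4, up to 4 called genes of smallest adjusted p for each list and activation comparison, and the 3 genes most correlated with each marker over libraries of at least 500000 counts. Il2ra beside Cd8a and Fasl at rest were named after their values were seen. Of 139 listed genes 136 were found by symbol.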

Additional observations from a re-analysis of the deposited data

Results flagged for a closer look

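Of 28 groups of library values examined (7 genes in 4 groups), 2 held a library far from the other 5, and chance alone would give about 1 in 20. Cd8a in resting mtDNA B6 replicate 2 stood at 38.7 CPM (117 counts), with the next library at 20.7 CPM. The gap was 0.756 of the group's range, above Dixon's critical value of 0.625. The same library had the highest Cd8b1 of its group (72.5 CPM) and the highest summed B cell genes (1086 CPM, against 227.9 to 643 CPM in the other 5), and their part in its Cd8a was not tested. Klrb1c in resting mtDNA NZB replicate 2 stood at 33.9 CPM, with the next library at 13.4 CPM and a gap of 0.716 of the range, and this value was 2 counts in the library of 51409 UMI counts.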

How the results depend on the processing

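Across 35 settings, 1199 of 1211 recomputed values of single genes kept their side of the threshold, and 5 lost and 7 gained a call. Reversals were counted only where a value was called under either setting, and there were 0. Values that were not called could change sign. For Cd8a between haplotypes at rest the log2 difference ran from −0.19 to 0.41 when 1 library was left out. Marker genes called higher on activation in mtDNA NZB went from 2 to 1 over the 21 libraries, with or without the library set as a term (the latter chosen after seeing the data). Those called lower went from 1 to 2 without a filter on low counts, through Ncr1 (8 and 1 counts). Markers called higher in mtDNA NZB at rest ranged from 0 to 1 when a library was left out, the 1 being Runx3. Runx3 on activation in mtDNA B6 passed without resting mtDNA B6 replicate 3 (adjusted p of 0.0483), without resting mtDNA NZB replicate 5 (0.0313) and with the library set as a term (0.0277, and 0.0309 over the 21 libraries, where Klrk1 had 0.094, all by edgeR). The CV as a multiple of that of Cd4 ranged, with 1 library left out, from 0.796 to 4.3 (Cd8a), 0.913 to 2.23 (Cd8b1) and 0.556 to 1.25 (Klrk1) in resting mtDNA B6, from 6.79 to 13.8 (Klrk1) in activated mtDNA B6, and from 3.62 to 7.31 (Cd8a), 3.87 to 7.77 (Cd8b1) and 2.91 to 5.87 (Klrk1) in activated mtDNA NZB. With CPM of the raw total the last 3 were 7.32, 7.69 and 5.99. In resting mtDNA NZB they were 2.1, 2.79 and 2.39 with the smallest library included and 6.51, 5.74 and 5.14 over the 21. The second count table gave 4.0 for Cd8a in activated and 1.55 for Klrk1 in resting mtDNA B6. The causes were not tested. Of 96 calls of named companion genes, 12 were lost at least once when a library was left out, 4 over the 21 libraries and 12 with the library set as a term.

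Over all genes, the 21 libraries gave 420 in place of 91 genes lower in mtDNA NZB at rest, and 95 higher and 18 lower in place of 0 for the difference between responses. At rest the second count table gave 30 higher and 13 lower, DESeq2 128 and 52, and the library set as a term 0 and 1. Title numbers and label numbers do not pair the libraries: deviations of same-numbered libraries correlated at between −0.185 and 0.253, with 4 of 12 pairs over 0.1 and 3 best matched to their own number (title), and 3 and 2 of 9 (label). With a replicate block 4 markers were called higher and 1 lower in mtDNA B6 and 2 and 1 in mtDNA NZB, by either number, so it changed no call of a marker gene, while genes higher and lower at rest fell to 39 and 33. Depth limits Klrd1, Klrc1 and Ncr1, and every value of the smallest library.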
